A study of Homo sapiens with 6 samples.

Results

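Amino acid and neurotransmitter transporters of the SLC1, SLC3, SLC6, SLC7, SLC15, SLC36, SLC38 and SLC43 families were followed in THP-1, a cell line from a human monocytic leukemia. The genes were chosen by a rule on their symbols alone, though earlier results of these data were known at that time. The rule found 64 of the 61267 genes in the deposited count table. All 6 libraries are labelled as THP-1 cells after 48 h with PMA at 100 ng/ml, a phorbol ester that turns them into attached, macrophage-type cells. The labels put 3 of them in the group NC and 3 in the group KD. The labels name no target for KD and no construct for either group, and the series title names METTL1, the tRNA 7-methylguanosine methyltransferase. METTL1 itself had 14.8 ± 1.02 CPM over the NC libraries and 13.7 ± 0.605 CPM over the KD libraries (TMM-scaled CPM, mean ± SD, n = 3 each) and did not pass the test on the scale of all tested genes (log2 fold change -0.10, edgeR adjusted p = 0.216). On the leukocyte scale described below it was lower in KD (log2 -1.32, edgeR adjusted p = 3.04e-14). On that scale 83.5% of all tested genes were lower, with a median log2 fold change of -1.26, so the METTL1 value was close to that of all genes. Its call depends on the scale. Every direction below therefore sets the libraries labelled KD beside those labelled NC.

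These carriers move amino acids, short peptides and amine transmitters across the plasma membrane and the lysosomal membrane. Several SLC7 proteins work only as light chains bound to an SLC3 heavy chain: SLC3A2 (CD98) with SLC7A5 forms a leucine exchanger, and SLC3A2 with SLC7A11 forms the cystine-glutamate exchanger that feeds glutathione synthesis. SLC1 proteins take up glutamate or small neutral amino acids, SLC6 proteins take up transmitters, taurine, creatine and amino acids with sodium and chloride, and SLC38 and SLC36 proteins carry small amino acids with sodium or protons. In macrophages this uptake supplies glutathione, arginine metabolism and the lysosomal signal to the mTORC1 kinase, and many of the genes are targets of ATF4, the factor made when amino acids run short.

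Total counts ran from 37628972 to 42970216 per library. The labels do not tell whether samples of a group are separate cultures. The p-values then rest on the spread between these samples alone, which may be technical. Markers of other cells stood apart between the groups, which touches every transporter result below. Of 18 genes on an epithelial and HEK293-type list, 17 were lower and 1 was higher in KD, beside 40.3% lower and 36.2% higher over all tested genes. The summed level of the 18 was 2927 to 3366 CPM in NC against 44.2 to 49.5 CPM in KD. The list was written with earlier results of these data known, so its count is no independent test. LIN28B, FGFR2, PAX3 and POU3F3 had no count in any KD library. CDKN2A, a cell cycle inhibitor gene known to be deleted in THP-1, was on that list and had 36.2 ± 0.954 CPM in NC and 0.110 ± 0.0964 CPM in KD. The NC libraries thus go against the THP-1 label at this gene, and whether they hold RNA of other cells was not tested. All 11 tested macrophage markers were higher in KD, with a sum of 874 to 905 CPM in NC and 1636 to 1665 CPM in KD. Of 47 leukocyte-restricted genes 45 were higher and none lower in KD, with a median log2 fold change of 1.2. Most fold changes are therefore given on 2 scales: the all-gene scale (TMM), and a leukocyte scale on which those 47 genes are level between the groups. The median log2 fold change of all tested genes was -0.05 on the first and -1.26 on the second, and -0.23 with library sizes alone. Fold bounds and ratios of NC to KD use the all-gene scale alone. The idea of the leukocyte scale was also written with earlier results of these data known.

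The promoter sequences of the transporters show which of them carry the letters that ATF4 is known to bind. RefSeq windows from 250 bases before to 50 bases after an annotated start (GRCh38.p14) were found for 48 of the 64 genes. A gene with several annotated starts has more windows, and the shares of genes with a motif are not matched for that. The motif TGATGNAA, searched on both strands, lay in windows of 7 of these 48 (14.6%), against 4.46% of 27305 genes with a window. The 6 of them with a tested transcript are shown because they went in both directions: SLC1A3, SLC1A4 and SLC3A2 were higher and SLC1A5, SLC7A1 and SLC38A1 were lower in KD on the all-gene scale; SLC1A4 and SLC3A2 turned to lower on the leukocyte scale. Capitals mark the match, and a match is a description of the letters only.
SLC1A3, chr5:36596342-36596401, plus strand, match starting 220 bases before the start: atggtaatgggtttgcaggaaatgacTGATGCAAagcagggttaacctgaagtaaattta
SLC1A5, chr19:46784878-46784937, minus strand, match starting 97 bases before a start: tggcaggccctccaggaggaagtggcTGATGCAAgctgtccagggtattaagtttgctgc
SLC1A4, chr2:64989381-64989410, plus strand, match on the other strand: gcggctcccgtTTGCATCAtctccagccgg
SLC38A1, chr12:46266502-46266531, minus strand: tcagacccgaaTGATGAAAagggatcagct
SLC7A1, chr13:29595663-29595692, minus strand, match starting 7 bases after the start: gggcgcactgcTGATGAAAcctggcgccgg
SLC3A2, chr11:62881725-62881748, plus strand, match on the other strand: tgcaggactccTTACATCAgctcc

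A second motif, CACGTG, the letters bound by MYC and by the lysosomal factor TFEB, lay in windows of 10 of the 48 genes (20.8%), against 8.78% of all genes with a window. It reads the same on both strands and does not overlap the first motif in its letters. These shares, too, are not matched for the number of starts. SLC7A5 and SLC36A1 are shown as a gene that was lower in KD on both scales and a lysosomal one that was higher on the all-gene scale only.
SLC7A5, chr16:87869606-87869663, minus strand, match starting 130 bases before the start: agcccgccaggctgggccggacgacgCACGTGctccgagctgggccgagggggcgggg
SLC36A1, chr5:151447534-151447591, plus strand, match starting 43 bases before a start: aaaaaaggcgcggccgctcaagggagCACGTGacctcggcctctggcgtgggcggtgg

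A total of 42 of the 64 genes had enough counts to be tested. Of these, 21 were higher and 19 lower in KD (edgeR quasi-likelihood test, Benjamini-Hochberg adjusted p under 0.05), and SLC15A2 and SLC38A7 did not pass. Over all 21905 tested genes, 36.2% were called higher and 40.3% lower. In CPM, NC and KD libraries were fully apart, with no overlap, for 40 of the 42, beside 78% of all tested genes. Among the called genes 8 were at least 2-fold higher and 13 at least 2-fold lower, where the shares over all tested genes were 12.6% and 22.9%. The median log2 fold change of the tested transporters was 0.16, and it was the same with genes at 0 in KD set to their bound. On the leukocyte scale 4 were higher and 33 lower, beside 3.46% higher and 83.5% lower over all tested genes, and the median was -1.05. Of the 21 that were higher on the all-gene scale, 12 (57.1%) were lower on the leukocyte scale, 5 did not pass there and 4 stayed higher. Over all genes 4945 switched in this way, which is 62.3% of the genes that were higher and 22.6% of those tested. The 42 are not the whole set. SLC6A11, SLC6A15, SLC6A17, SLC7A3 and SLC38A3 passed the filter through the NC libraries alone and so had to be lower in KD.

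**Figure D1:**
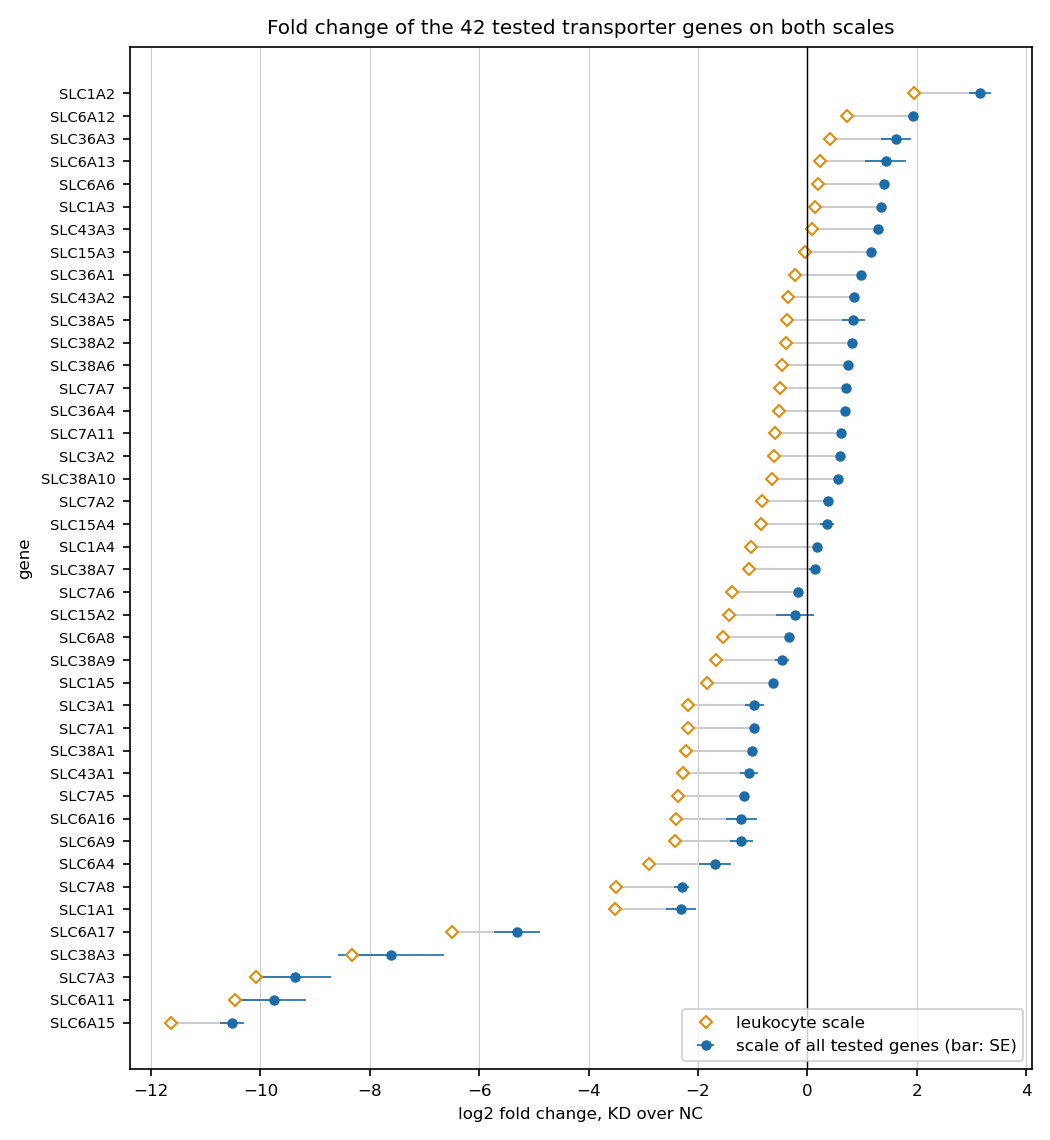
Log2 fold change, KD over NC, of the 42 tested transporter genes on the all-gene scale (filled circles, bars show the SE) and on the leukocyte scale (open diamonds). SLC1A2, SLC6A12, SLC6A6 and SLC1A3 lie above 0 and pass the test on both scales, and the 19 genes that were lower on the first scale are lower on the second; the fitted values of SLC6A11, SLC7A3 and SLC38A3, which had no count in KD, depend on the prior count and are not bounds.

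The transporters made up 0.189% to 0.203% of all counts in NC and 0.252% to 0.266% in KD. Scaled by exon length, the 10 highest genes per library held 82.8% to 83.1% of the summed transporter level in NC and 86.9% in KD. By group mean the 10 highest were the same genes in both groups, though SLC1A3 and SLC7A1 were almost level at rank 10 in NC. Single libraries can therefore differ in that gene. The share of a gene in this sum does not depend on how libraries are scaled. It does depend on the exon length, which covers every annotated exon of a gene and not 1 transcript. In KD, SLC1A3 (21227 exon bases) had 434.9 CPM and SLC38A2 (6509 exon bases) 348.7 CPM, but SLC38A2 ranked higher by length. SLC43A3, whose exons overlap those of another gene as described below, had 16.4% ± 0.130 in NC and 28.0% ± 0.281 in KD (mean ± SD, n = 3 each). It was highest in every KD library. The glutamine carrier SLC1A5 had 16.4% ± 0.379 in NC and 7.37% ± 0.119 in KD, and its shares in NC libraries (15.96%, 16.56% and 16.66%) overlapped those of SLC43A3 (16.46%, 16.57% and 16.31%). In KD it took the fifth place. SLC38A2 had 10.9% ± 0.0532 and 13.4% ± 0.168, the taurine carrier SLC6A6 6.11% ± 0.0828 and 11.2% ± 0.481, and the heavy chain SLC3A2 9.28% ± 0.168 and 9.78% ± 0.0623. SLC7A5 went from 7.75% ± 0.212 to 2.41% ± 0.227 and SLC38A1 from 5.81% ± 0.143 to 2.01% ± 0.0809. The lower ranks were close together: in NC, SLC1A3 (8.03 ± 0.249 RPKM, counts per kilobase of exon scaled to library size) and SLC7A1 (8.03 ± 0.189) did not differ beyond their spread, nor did SLC38A10 and SLC7A11 in KD (15.8 ± 0.813 and 14.9 ± 0.395).

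**Figure D2:**
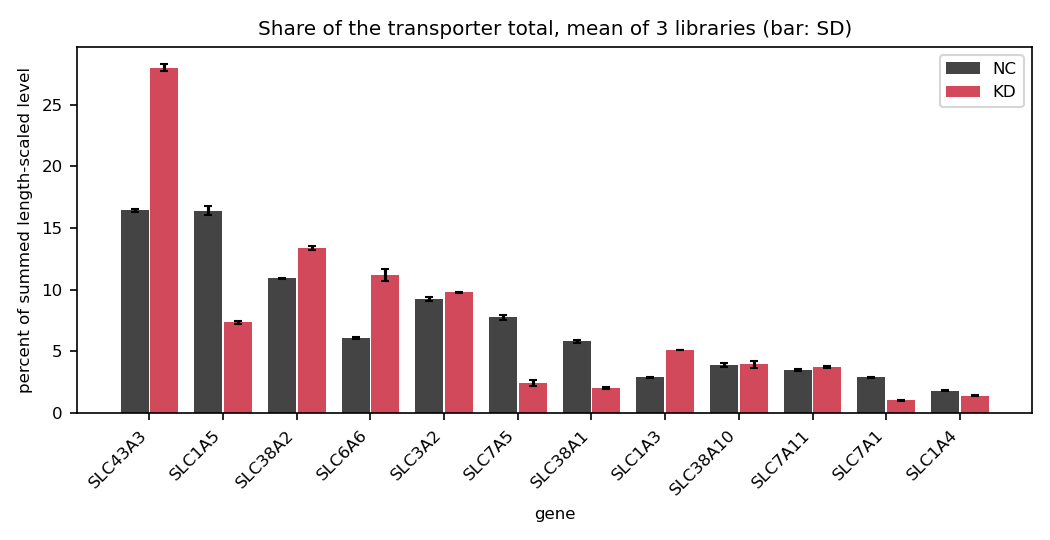
Share of each gene in the summed length-scaled level of the 64 transporter genes, for the 12 genes with the highest share in either group (bars are the mean of 3 libraries, error bars the SD). SLC43A3 goes from 16.4% in NC to 28.0% in KD, while SLC1A5 goes from 16.4% to 7.37% and SLC7A5 from 7.75% to 2.41%.

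The heavy chains came first in the order of roles. SLC3A2 (chromosome 11, 62856004 to 62888880, plus strand) is the partner of most light chains in leukocytes. It stood at 159.6, 167.4 and 167.7 CPM in the NC libraries and at 248.3, 249.7 and 253.5 CPM in the KD libraries. All KD libraries lay above all NC libraries on the all-gene scale, 1.52-fold (log2 0.60, SE 0.040, edgeR adjusted p = 6.49e-13), but the gene was at -0.61 on the leukocyte scale. SLC3A1, the heavy chain of the renal cystine carrier, was lower on both scales (2.95 ± 0.344 CPM in NC and 1.51 ± 0.120 CPM in KD, log2 -0.97 and -2.18). Of its 6541 exon bases, 1923 also lie in PREPL exons on the other strand and 1761 in exons of another gene on the same strand, so its level is uncertain.

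Among the light chains, SLC7A5 and SLC7A8 fell on both scales, and SLC7A11 and SLC7A7 had log2 fold changes close to that of SLC3A2. SLC7A5, which exchanges leucine and other large neutral amino acids (chromosome 16, 87830023 to 87869507, minus strand), was at 100.8, 108.1 and 99.4 CPM in NC and 40.4, 48.8 and 49.0 CPM in KD. The KD libraries were all below the NC libraries, by 2.23-fold on the all-gene scale (log2 -1.16, SE 0.060, edgeR adjusted p = 6.35e-13), and the log2 value was -2.37 on the leukocyte scale. Its processed copies SLC7A5P1 and SLC7A5P2 held 141 and 24 counts over NC and 43 and 10 over KD. SLC7A8, a related exchanger of neutral amino acids, was at 7.42, 7.81 and 7.33 CPM in NC and 1.40, 1.30 and 1.88 CPM in KD, 4.92-fold lower (log2 -2.30, SE 0.144, edgeR adjusted p = 2.14e-13), and at -3.51 on the leukocyte scale.

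SLC7A11, the cystine-importing chain (chromosome 4, 138164097 to 138242349, minus strand), was at 90.7, 95.6 and 96.2 CPM in NC and 141.1, 142.1 and 148.1 CPM in KD. The groups did not overlap, and the log2 fold change was 0.61 (SE 0.041, edgeR adjusted p = 1.01e-12) on the all-gene scale and -0.60 on the leukocyte scale, beside 0.60 and -0.61 for SLC3A2. SLC7A7, which exports arginine and lysine and is known for its expression in monocytes, was at 12.5, 11.8 and 10.9 CPM in NC and 19.8, 17.7 and 19.8 CPM in KD (log2 0.70, SE 0.077, and -0.51 on the leukocyte scale). SLC7A6, a second cationic and neutral exchanger, was at 36.2, 37.3 and 36.4 CPM in NC and 34.5, 30.7 and 32.5 CPM in KD. On the all-gene scale it was lower by a small margin (log2 -0.17, SE 0.054, edgeR adjusted p = 0.00714) that did not pass without KD replicate 2 (log2 -0.12, adjusted p = 0.0760). On the leukocyte scale it was at -1.38. Of its 7588 exon bases, 3372 also lie in exons of SLC7A6OS on the other strand. For SLC7A11, 865 of 9645 exon bases also lie in exons of SLC7A11-AS1 on the other strand, which held 16.9 CPM in NC and 25.0 CPM in KD. No source used here says whether counting used strand.

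The count of a light chain divided by the count of SLC3A2 in the same library does not depend on scaling. For SLC7A11 this ratio was 0.568, 0.571 and 0.573 in NC and 0.568, 0.569 and 0.584 in KD. The mean log2 difference, KD minus NC, was 0.008, and single pairs of libraries differed by -0.013 to 0.041. For SLC7A7 the ratios also overlapped, at 0.0783, 0.0704 and 0.0651 in NC and 0.0798, 0.0708 and 0.0780 in KD. The SLC7A5 ratio was 0.632, 0.646 and 0.593 in NC and 0.163, 0.196 and 0.193 in KD, 3.40-fold lower, with every KD library below every NC library. The SLC7A6 ratio went from 0.222 ± 0.00470 to 0.130 ± 0.00811 and the SLC7A8 ratio from 0.0456 ± 0.00167 to 0.00608 ± 0.00116 (mean ± SD, n = 3 each), also without overlap. With 3 libraries against 3, an exact two-sided permutation test cannot go below p = 0.1, which SLC7A5, SLC7A6 and SLC7A8 reached (adjusted p = 0.167 over 5 ratios), while SLC7A7 had p = 0.3 and SLC7A11 p = 0.9 (exact permutation test, adjusted p = 0.375 and 0.9). The test therefore cannot call any of them.

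**Figure D3:**
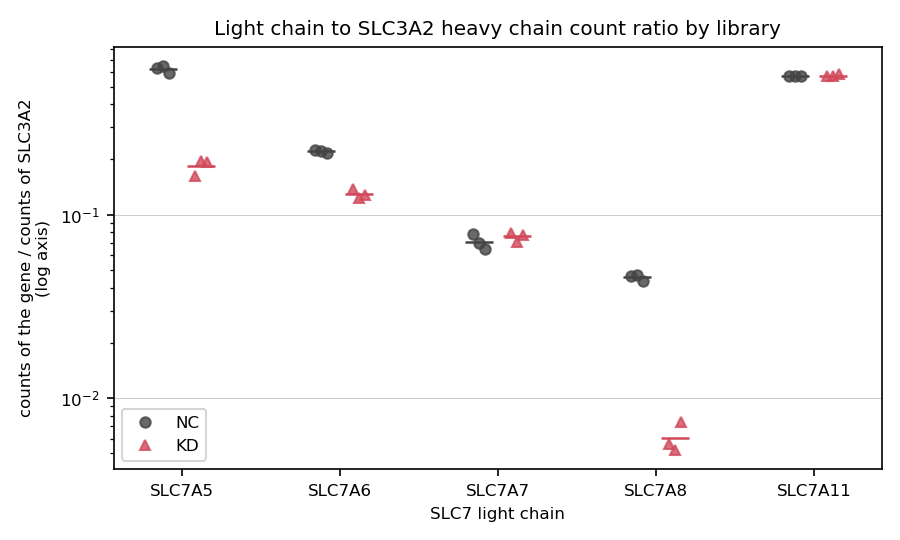
Counts of each SLC7 light chain divided by counts of SLC3A2 in the same library (log axis), with NC libraries as circles, KD libraries as triangles and the group mean as a line. The SLC7A11 ratio lies between 0.568 and 0.584 in all 6 libraries, whereas the SLC7A5 ratio is 0.593 to 0.646 in NC and 0.163 to 0.196 in KD.

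The cationic amino acid carriers of the SLC7 family work without a heavy chain. SLC7A1, the main arginine importer of many cells, went from 61.7 ± 1.45 to 31.5 ± 1.11 CPM (mean ± SD, n = 3 each) and was lower on both scales (log2 -0.97 and -2.18). SLC7A2, the arginine carrier linked to macrophage activation, stood at 11.5 ± 0.730 and 14.9 ± 1.16 CPM. It was higher on the all-gene scale (log2 0.37, SE 0.081, edgeR adjusted p = 2.13e-04), below 0 on the leukocyte scale (-0.84), and did not pass with library sizes alone (adjusted p = 0.0526). SLC7A3 had 74, 76 and 110 counts in the NC libraries and none in any KD library, which puts it at least 79.7-fold lower in KD when the KD group is set at 3 counts. That bound covers counting error only and takes each count as an independent fragment. Even numbers made up 69.4% of counts between 1 and 20 and 50.9% of counts over 1000, a pattern that counting the 2 ends of a fragment apart would give, and bounds and intervals here would then be too firm.

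The glutamate carriers of the SLC1 family went apart. SLC1A3 (chromosome 5, 36596588 to 36688334, plus strand), which clears glutamate in glia and is also expressed by macrophages, was at 167.3, 176.6 and 167.5 CPM in NC and 428.7, 436.4 and 439.7 CPM in KD. It rose 2.55-fold on the all-gene scale (log2 1.35, SE 0.041, edgeR adjusted p = 1.23e-19) and by a log2 of 0.14 on the leukocyte scale (adjusted p = 0.00259). SLC1A2 (chromosome 11, 35251205 to 35420063, minus strand), the main glutamate carrier of astrocytes, had few counts in NC and 201 to 245 in KD. Its levels were 0.380, 0.829 and 0.708 CPM in NC and 6.23, 5.13 and 5.75 CPM in KD, so that the lowest KD library was several times the highest NC library. It rose by a log2 of 3.15 (SE 0.20, edgeR adjusted p = 2.92e-13) on the first scale and 1.94 on the leukocyte scale, and leaving out single libraries gave 2.88 to 3.36. SLC1A1, the glutamate and cysteine carrier of neurons and kidney, went the other way, from 2.08 ± 0.147 to 0.416 ± 0.199 CPM (log2 -2.32 and -3.52 on the leukocyte scale). Of the astrocyte markers measured beside them, GFAP had a mean of 0.944 CPM (NC) and 1.05 CPM (KD), and AQP4 had no count in KD. Over the whole neuron and glia list 3 of 7 tested genes were higher and 2 lower, beside 36.2% and 40.3% of all tested genes. The sum of the list was 62.5 to 67.7 CPM in NC and 122.8 to 124.8 CPM in KD, most of it from MBP. The part of other cells in these results was not tested.

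The neutral amino acid carriers of the SLC1 family differed from each other. SLC1A5, the glutamine carrier (chromosome 19, 46774883 to 46788594, minus strand), was at 144.7, 157.4 and 153.8 CPM in NC and 96.4, 97.5 and 101.5 CPM in KD. It fell on both scales (log2 -0.63, SE 0.043, edgeR adjusted p = 1.15e-12, and -1.84 on the leukocyte scale). An antisense gene shares 780 of its 3332 exon bases and held 19.6 CPM in NC and 19.7 CPM in KD. SLC1A4, which carries alanine, serine and cysteine, was close to level on the all-gene scale (34.8 ± 1.30 and 39.2 ± 1.65 CPM, log2 0.17, edgeR adjusted p = 0.00449), at -0.01 with library sizes alone and at -1.04 on the leukocyte scale.

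Carriers of osmolytes in the SLC6 family included a pair that rose on both scales, SLC6A6 and SLC6A12. SLC6A6, the taurine carrier (chromosome 3, 14402576 to 14489349, plus strand), was at 137.6, 141.7 and 141.4 CPM in NC and 350.9, 388.6 and 371.1 CPM in KD. Its rise was 2.64-fold on the all-gene scale (log2 1.40, SE 0.044, edgeR adjusted p = 1.91e-19) and passed on the leukocyte scale as well (log2 0.19, adjusted p = 3.20e-04). SLC6A12, the betaine and GABA carrier that cells use against osmotic stress (chromosome 12, 190077 to 214570, minus strand), was at 5.81, 5.25 and 4.52 CPM in NC and 19.9, 19.95 and 19.3 CPM in KD. No library of one group came near the other, and the log2 fold change was 1.93 (SE 0.090, edgeR adjusted p = 5.34e-16) and 0.72 on the leukocyte scale (adjusted p = 1.13e-07). Its neighbour SLC6A13, a GABA carrier whose gene lies 6051 bases away on the same strand, was higher on the first scale at a low level (0.266 and 0.721 CPM, log2 1.43) and did not pass on the second. SLC6A8, the creatine carrier, was lower on both (log2 -0.33 and -1.54), and its near-identical copy SLC6A10P had no count in any library.

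All 4 tested SLC6 amino acid and glycine carriers, SLC6A9, SLC6A15, SLC6A16 and SLC6A17, were lower in KD on both scales, and so was SLC6A4, the 1 tested monoamine carrier. Over all tested genes, 40.3% were lower on both scales. SLC6A15, SLC6A17 and SLC6A11 passed the filter through the NC libraries alone, so they had to be lower in KD. SLC6A15, a carrier of branched-chain amino acids and proline in brain (chromosome 12, 84859491 to 84913629, minus strand), was at 28.9, 31.2 and 27.7 CPM in NC, where it had 1219, 1280 and 1252 counts. In KD it had 0, 0 and 2 counts, a ratio of NC to KD of 1725 (95% exact binomial interval 477 to 14250). SLC6A17, a vesicular carrier, had 88, 99 and 87 counts in NC and 0, 4 and 2 in KD, a ratio of 42 (95% interval 19.1 to 115). The GABA carrier SLC6A11 had 97, 119 and 122 counts in NC and none in KD, at least 103.6-fold lower. SLC6A4, the serotonin carrier, was at 1.65 ± 0.339 and 0.509 ± 0.224 CPM, the glycine carrier SLC6A9 at 2.25 ± 0.196 and 0.974 ± 0.148 CPM, and SLC6A16 at 0.996 to 1.49 CPM in NC and 0.407 to 0.608 CPM in KD, and each fell on both scales. In the same libraries NEFM had 1595 ± 198 CPM (NC) and 0.390 ± 0.0282 CPM (KD), and LIN28B had 86.4 ± 3.41 CPM in NC with no count in KD. On the neuron and glia list, whose sums are given above, SYT1 (7.53 ± 1.07 and 0.356 ± 0.0882 CPM) and RBFOX3 (1.24 and 0.170 CPM) were lower, while SNAP25 went the other way (1.17 to 1.37 CPM in NC and 4.28 to 5.49 CPM in KD). The part of the cells or state behind those markers in the levels of SLC6A15, SLC6A17, SLC6A11, SLC7A3 and SLC38A3 was not tested. In bulk RNA, fewer cells of a type and less RNA per cell cannot be told apart.

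The sodium-coupled SLC38 carriers included the pair that lies side by side on chromosome 12, and these went in opposite directions on the all-gene scale. SLC38A1 (46183063 to 46270017, minus strand), a glutamine carrier of growing cells, was at 162.7, 163.0 and 159.4 CPM in NC and 82.8, 77.9 and 80.8 CPM in KD, 2.01-fold lower (log2 -1.01, SE 0.041, edgeR adjusted p = 3.06e-17). SLC38A2 (46358188 to 46372773, minus strand), the carrier that cells raise when amino acids are scarce, lies 88171 bases away. It was at 193.1, 204.0 and 196.4 CPM in NC and 343.8, 345.0 and 357.3 CPM in KD, 1.76-fold higher (log2 0.82, SE 0.041, edgeR adjusted p = 2.21e-15). On the leukocyte scale both were lower, SLC38A1 at -2.22 and SLC38A2 at -0.39. SLC38A10 was at 87.1, 84.1 and 83.4 CPM in NC and 130.4, 126.2 and 117.8 CPM in KD (log2 0.56 and -0.65 on the leukocyte scale).

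Of the other SLC38 genes, SLC38A6 (9.80 ± 0.741 and 16.3 ± 0.358 CPM) and SLC38A5 (1.22 ± 0.336 and 2.20 ± 0.0620 CPM) were higher on the all-gene scale. On the leukocyte scale SLC38A6 was lower (log2 -0.47) and SLC38A5 did not pass (log2 -0.37). SLC38A9, the lysosomal arginine sensor of the mTORC1 pathway, was lower on both scales (5.43 ± 0.270 and 3.94 ± 0.490 CPM, log2 -0.46 and -1.67). SLC38A7, a lysosomal glutamine exporter, did not pass on the first scale (7.05 ± 0.641 and 7.76 ± 0.185 CPM, log2 0.14). SLC38A3, the glutamine carrier of liver and astrocytes, had 30, 26 and 20 counts in NC and none in KD, at least 23.3-fold lower.

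In the SLC43 family 2 of 3 tested genes were higher and 1 lower on the all-gene scale, and on the leukocyte scale 2 were lower and none higher. Over all tested genes, 36.2% were higher and 40.3% lower on the first scale, and 3.46% and 83.5% on the second. With 3 tested genes, these counts are too small to set the family apart. SLC43A3, known as a carrier of purine bases (chromosome 11, 57406954 to 57427580, minus strand), was at 202.3, 213.5 and 204.1 CPM in NC and 504.5, 503.6 and 512.6 CPM in KD. That was 2.45-fold higher on the first scale (log2 1.30, SE 0.041, edgeR adjusted p = 2.65e-19), and on the leukocyte scale the log2 value of 0.08 did not pass (adjusted p = 0.0554). Another gene on the same strand shares 1349 of its 4517 exon bases and was itself at 186.9 and 450.2 CPM, so reads in those exons cannot be given to one of them. SLC43A1, a leucine carrier whose gene lies 56954 bases away on the same strand, was lower on both scales (3.64 ± 0.294 and 1.74 ± 0.172 CPM, log2 -1.07 and -2.27). SLC43A2, a related leucine carrier, was at 6.49 ± 0.648 and 11.8 ± 0.541 CPM (log2 0.86 and -0.35 on the leukocyte scale).

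In the SLC15 family 2 of 3 tested genes, and in the SLC36 family 3 of 3, were higher on the all-gene scale, and none of them on the leukocyte scale. Over all tested genes, 36.2% were higher on the first scale and 3.46% on the second. With 3 tested genes each, these counts are too small to set a family apart. SLC15A3, which moves histidine and small peptides out of the endolysosome, was at 21.6, 22.5 and 22.4 CPM in NC and 48.9, 51.4 and 48.6 CPM in KD. It was 2.24-fold higher on the all-gene scale (log2 1.16, SE 0.052, edgeR adjusted p = 2.67e-16) and at -0.05 on the leukocyte scale, where it did not pass. SLC15A4, its relative that carries the TASL adaptor for toll-like receptor signals, was at 4.16 ± 0.158 and 5.34 ± 0.469 CPM (log2 0.36 and -0.85, and adjusted p = 0.210 with library sizes alone). SLC15A2, a peptide importer of kidney and lung, was below 1 CPM in both groups and did not pass on the all-gene scale, but was lower on the leukocyte scale (log2 -1.43, edgeR adjusted p = 6.36e-04). The proton-coupled carriers SLC36A1 (log2 0.98), which sits in lysosomes, and SLC36A4 (27.2 ± 1.07 and 43.9 ± 1.21 CPM) were higher on the first scale and lower on the leukocyte scale (log2 -0.23 and -0.52). SLC36A3, from the same cluster on chromosome 5 as SLC36A1, was higher at a low level (0.545 and 1.69 CPM, log2 1.62) and did not pass on the leukocyte scale.

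**Figure D4:**
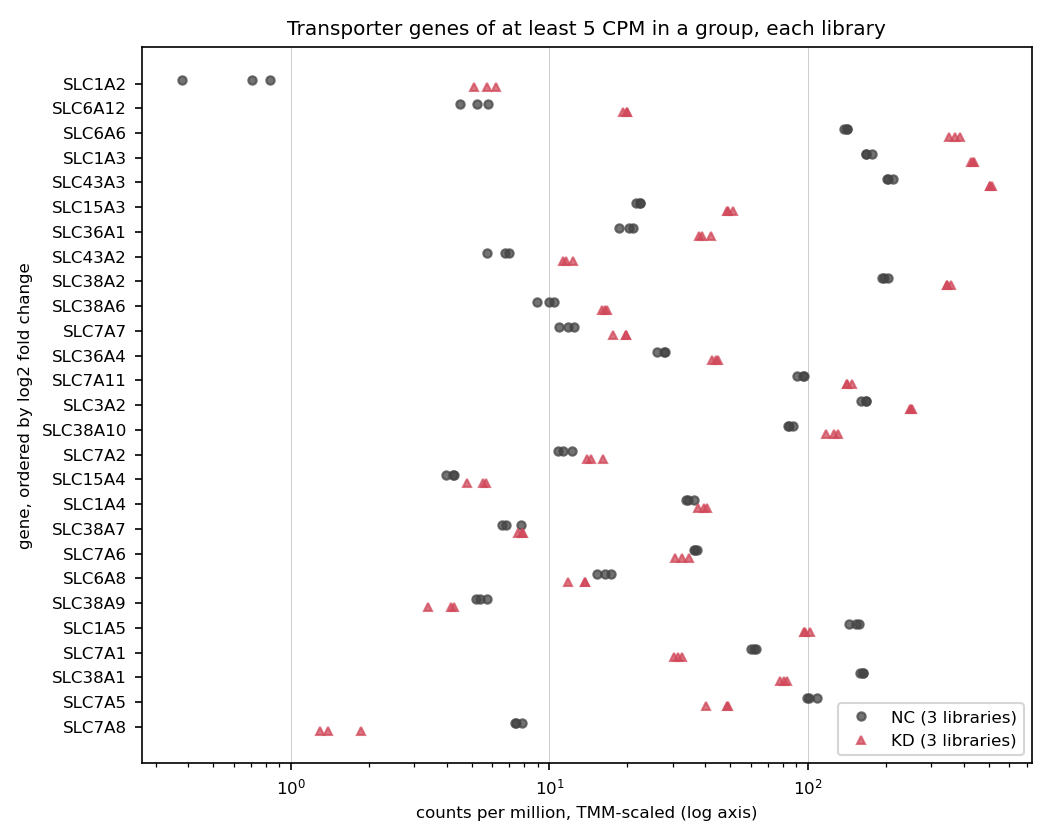
TMM-scaled CPM in each library (log axis) for 27 transporter genes of at least 5 CPM in a group and a count in every library, with NC as circles and KD as triangles. The groups overlap for SLC38A7 alone among these 27; SLC6A15, which reached 31.2 CPM in NC, is left out because KD libraries were at 0.

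The other 22 genes were not tested, and none had more than 20 counts in any library. No count was found in any library for SLC6A2, the noradrenaline carrier, or for SLC6A18, SLC7A13, SLC7A14 and SLC38A11. Others among the 22 were SLC1A6, SLC1A7, SLC6A3, SLC6A5, SLC6A7, SLC6A14, SLC6A19, SLC6A20, SLC7A4, SLC7A9, SLC7A10, SLC15A1, SLC15A5, SLC36A2, SLC38A4 and SLC38A8. Among these are the dopamine carrier SLC6A3, with 4 counts over NC and none in KD, and the intestinal peptide carrier SLC15A1, with 5 and none. Of 5 kidney and gut brush border markers, UMOD had no count in any library, and the sum of the list was 6.46 to 8.09 CPM in NC and 3.65 to 3.86 CPM in KD. Of the 3 tested, VIL1 (4.61 and 2.90 CPM) and LRP2 (2.16 and 0.0423 CPM) were lower in KD and none was called higher. Over all tested genes 40.3% were lower and 36.2% higher. CUBN (0.460 and 0.695 CPM, not called) and CDH16 (0.0321 and 0.0847 CPM, not tested) had higher means in KD.

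Genes of the pathways that these carriers serve were read from the lists named here, beside all tested genes, of which 36.2% were higher and 40.3% lower on the all-gene scale. With leukocyte genes held level these shares were 3.46% and 83.5%. Of 27 genes of the amino acid response, 7 were higher and 17 lower in KD, with a median log2 fold change of -0.55, and 26 were lower on the leukocyte scale. ASNS, asparagine synthetase, fell from 98.8 ± 2.54 to 11.5 ± 0.870 CPM, and PHGDH, the first enzyme of serine synthesis, from 364.6 ± 10.4 to 91.2 ± 3.21 CPM. STC2 fell with them (78.3 ± 2.68 and 10.8 ± 1.24 CPM), and ATF4 itself was at 573.3 ± 12.9 and 390.4 ± 14.2 CPM (log2 -0.55 and -1.76 on the leukocyte scale). The glutathione and NRF2 list had 11 higher and 3 lower of 14 tested with a median of 0.54, and none higher and 10 lower on the leukocyte scale. GCLC, the catalytic subunit of the first enzyme of glutathione synthesis, was at 87.3 ± 2.29 and 200.2 ± 2.43 CPM (log2 1.197 and -0.01). It stood beside NQO1 (log2 1.12 and -0.09) and HMOX1 (log2 1.13 and -0.08).

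Enzymes of amino acid use had 5 higher and 10 lower of 20 tested, with a median of -0.34. On the leukocyte scale these numbers were 1 and 17. KYNU, of tryptophan breakdown, rose on both scales (105.9 ± 2.08 and 308.3 ± 2.06 CPM, log2 1.54 and 0.33), and the proline synthesis genes PYCR1 (log2 -2.21) and ALDH18A1 (log2 -2.26) fell on both. The list for mTORC1 amino acid sensing had 17 higher and 6 lower of 27 tested with a median of 0.22, and 26 lower on the leukocyte scale, where 83.5% of all tested genes were lower. TFEB (log2 1.19 and -0.02), FNIP1 (log2 0.94 and -0.27) and TFE3 (log2 0.87 and -0.34) had the smallest p. Of 9 tested partners of the endolysosomal SLC15 carriers, 6 were higher and 1, NOD1, was lower (log2 -1.37 and -2.58), while the leukocyte scale gave 1 higher and 5 lower. TASL rose on both scales (10.5 ± 0.305 and 30.7 ± 1.06 CPM, log2 1.55 and 0.34), and RIPK2 was higher on the first and lower on the second (log2 1.09 and -0.12). Of 9 tested carriers of other families for amino acids and transmitters, 3 were higher and 5 lower, and 7 were lower and none higher when leukocyte genes were held level. SLC18B1, a vesicular polyamine carrier, was at 7.59 ± 0.550 and 0.0678 ± 0.0389 CPM, SLC17A5 was higher on the all-gene scale (log2 0.82 and -0.39), and SLC16A10, an aromatic amino acid carrier, fell on both (log2 -1.46 and -2.66).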

How the data were processed

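RNA of 6 THP-1 samples was prepared for DNBSEQ-T7 sequencing, per the labels' protocols. The submitters' processing notes name fastp 0.23.0 and the build GRCh38. For the aligner, the counting program, the annotation and strand use, the sources used here give nothing. The deposited table holds raw counts per gene with exon coordinates and exon length. Total counts ran from 37628972 to 42970216 per library.

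The test on counts was that of edgeR 4.0.16 under R 4.3.3 (quasi-likelihood test, robust estimation, TMM, filterByExpr, which left 21905 genes), two-sided, at a Benjamini-Hochberg adjusted p of 0.05 over all tested genes. Standard errors come from the log2 fold change and the F statistic. CPM values are counts over the TMM-scaled library size. The leukocyte scale takes TMM factors over 47 leukocyte-restricted genes alone. Ratios of light chain to SLC3A2 counts used an offset of 0.5 on the log2 scale and an exact permutation test. Group means are of 3 libraries each. Libraries of a group differed by more than sampling noise (chi-square 3.16 to 6.18 per degree of freedom). Same-numbered samples did not deviate together (correlations 0.036, 0.026 and -0.079 over 21905 genes).

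The transporters, gene lists and markers were chosen with earlier results of these data known. Of the untested transporters, 1 is not reported here by name. Transporters are given with each library where they passed, changed at least 2-fold and reached 5 CPM, where they were SLC3A2 or one of its light chains at that level, or where they were among the 10 highest per length. Each list has up to 3 examples with the smallest p, and ATF4 and the marker genes given singly were named after their values were seen. In a simulation of the KD and NC comparison, with 50 of 21905 genes changed at each fold and means of at least 10 counts, the steps recovered 50% at 1.25-fold, 66% at 1.5-fold, 90% at 2-fold and 96% at 4-fold, and called 5 of 21161 unchanged genes. It used NC means for both groups, 1 common dispersion and as many changed genes up as down. In the data 76.5% of tested genes were called, so the simulation does not test the choice of scale. Alternatives were DESeq2 1.42.0 and its size factors, limma-voom (limma 3.58.1), library sizes alone, other filters, a replicate block, counts divided by 2 and leaving out each library. Removing genes averaging under 10 counts in KD was added after the data were seen. Tables and figures were made in Python 3.11.15 (scipy 1.17.1, pandas 2.3.3, matplotlib 3.10.9).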

Additional observations from a re-analysis of the deposited data

How the results depend on the processing

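On the leukocyte scale 4 of the tested transporters were higher and 33 lower, against 21 and 19, and over all genes 758 were higher and 18297 lower. Transporters that changed sign there were SLC1A4 (-1.04), SLC3A2 (-0.61), SLC7A2 (-0.84), SLC7A7 (-0.51), SLC7A11 (-0.60), SLC15A3 (-0.049), SLC15A4 (-0.85), SLC36A1 (-0.23), SLC36A4 (-0.52), SLC38A2 (-0.39), SLC38A5 (-0.37), SLC38A6 (-0.47), SLC38A7 (-1.07), SLC38A10 (-0.65) and SLC43A2 (-0.35), in log2. With library sizes alone SLC1A4 (-0.014) and SLC38A7 (-0.049) changed sign, neither passing, and SLC7A2 and SLC15A4 no longer passed. The cause was not tested.

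The SLC7A11 to SLC3A2 log2 ratio difference ran from -0.0056 to 0.0146 when single libraries were left out. SLC7A6 lost its call without KD replicate 2, and SLC1A4 lost it (log2 0.10, adjusted p = 0.0898) without genes averaging under 10 counts in KD. A replicate block left 21 transporters higher and 19 lower, and its pairing rests on a shared number only. DESeq2, DESeq2 size factors and limma-voom changed no call among the 42. Counts of at most 20 per library, as for the 22 untested genes, do not show whether the groups differ.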
